A study of Mus musculus with 24 samples.

Results

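The genes *Mertk*, *Axl*, *Gas6*, *Msr1*, *Marco*, *Stab1*, *Cd163*, *Scarb1*, *Itgb5* and *Mfge8* encode receptors and secreted proteins with which macrophages take up dying cells, lipoproteins and debris. The set is defined by the names of the genes and by no threshold on a measured value, but it was chosen with earlier results of these data known. Its counts beside the shares over all genes are therefore a description. The 10 genes were followed through an RNA sequencing experiment that counted reads on 56884 genes. All 10 passed the filter on low counts and were among the 13679 genes tested. The study asked how inhibitors of mitochondrial ATP synthesis and modulators of the integrated stress response (ISR) affect the response of murine bone marrow–derived macrophages (BMDM) to interleukin-4 (IL-4) and IL-13. BMDM are primary cells grown from marrow with macrophage colony-stimulating factor.

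All cells came from wild-type C57BL/6J mice, 9-week-old females per the study's methods, and were taken at day 6 of differentiation. Naive macrophages received no cytokine for 24 hours, and IL-4/IL-13–treated macrophages received 20 ng/mL of each cytokine over that time. The other 4 groups received the same cytokines after 1 hour of pretreatment with an inhibitor that then stayed in the medium. Tunicamycin, which blocks N-linked glycosylation and so stresses the endoplasmic reticulum, was used at 5 μg/mL. Sal003, which inhibits the dephosphorylation of the translation factor eIF2α, was used at 10 μM. Oligomycin, an inhibitor of the mitochondrial ATP synthase, was used at 1 μM, alone or with 1 μM of ISRIB, a compound that opposes the effect of eIF2α phosphorylation on translation. For these last 8 libraries the sample titles and the library names disagree on which 4 received ISRIB. The 4 libraries whose titles name ISRIB are called oligomycin set A, and the 4 whose library names do are called oligomycin set B. The counts were not used to decide between these readings. Each group held 4 libraries, 1 from each of mice 1, 2, 4 and 5, and the controls and treated cells of 1 number came from the same animal.

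Macrophages clear dying cells in a process called efferocytosis. Phosphatidylserine exposed on a dying cell is bound by soluble bridging proteins, which are recognised in turn by receptor tyrosine kinases or integrins on the phagocyte. Scavenger receptors are a structurally mixed group that binds modified lipoproteins, bacterial surfaces, hemoglobin complexes and cell debris. Several of them serve as markers of macrophage states in tissue.

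The regulatory sequence just upstream of the genes differed widely among the members. The windows printed here are the 250 bases before the start of the canonical transcript, read 5′ to 3′ on the strand of the gene from GRCm39, with CG dinucleotides in capitals. They are shown for the 4 genes with the most distinct changes described below: *Marco* at chr1:120432754-120433003 (minus strand), *Cd163* at chr6:124281356-124281605 (plus strand), *Axl* at chr7:25488330-25488579 (minus strand) and *Mfge8* at chr7:78798826-78799075 (minus strand).
Marco: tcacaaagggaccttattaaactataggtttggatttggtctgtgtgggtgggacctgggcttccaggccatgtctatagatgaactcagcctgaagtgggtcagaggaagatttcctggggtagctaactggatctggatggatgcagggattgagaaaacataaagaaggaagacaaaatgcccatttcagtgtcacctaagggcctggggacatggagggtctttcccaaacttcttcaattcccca
Cd163: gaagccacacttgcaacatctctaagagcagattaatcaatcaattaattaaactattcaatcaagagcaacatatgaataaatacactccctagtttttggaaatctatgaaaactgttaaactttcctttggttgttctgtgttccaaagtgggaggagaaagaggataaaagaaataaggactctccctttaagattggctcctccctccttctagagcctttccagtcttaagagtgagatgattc
Axl: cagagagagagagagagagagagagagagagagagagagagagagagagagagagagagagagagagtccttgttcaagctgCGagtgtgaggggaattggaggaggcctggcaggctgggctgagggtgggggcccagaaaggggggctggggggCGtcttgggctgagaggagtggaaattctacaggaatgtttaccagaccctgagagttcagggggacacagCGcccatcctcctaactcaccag
Mfge8: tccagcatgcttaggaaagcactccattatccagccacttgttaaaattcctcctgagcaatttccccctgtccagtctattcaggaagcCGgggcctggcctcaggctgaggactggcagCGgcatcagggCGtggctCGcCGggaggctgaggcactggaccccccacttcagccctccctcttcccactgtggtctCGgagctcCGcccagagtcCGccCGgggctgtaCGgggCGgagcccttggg
The windows of *Marco*, *Cd163* and *Msr1* held 0 CG dinucleotides, as did 7.39% of the windows of 21770 protein-coding genes, expressed here or not. *Gas6* held 2, *Axl* 3, *Mertk* 4, *Stab1* 5, *Mfge8* 11, *Itgb5* 13 and *Scarb1* 15, against a median of 8 over these protein-coding genes. The GC content of the members' windows ranged from 35.6% in *Msr1* to 64.8% in *Scarb1* around a median of 53.2% over the protein-coding genes. Both strands were searched for TTC and GAA separated by any 4 bases, a spacing bound by STAT6, and for TGATGNAA, the core of the element bound by C/EBP and ATF factors. They occurred in 5.89% and 3.39% of the windows of the protein-coding genes, and in 0 of the 10 members' windows.

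The libraries held between 16238727 and 26725278 reads on genes. Among the IL-4/IL-13 markers and ISR genes that served as checks, counted together, 7 of 8 were higher in IL-4/IL-13–treated than in naive macrophages and 0 were lower. Of all tested genes, 30.1% were higher. With each inhibitor 4 of the 8 were lower than with the cytokines alone and 4 were higher. The shares of all tested genes were 24.6% to 37.6% lower and 25.9% to 38.7% higher. The ISR genes *Atf4*, *Asns* and *Trib3* were higher with every inhibitor than with the cytokines alone. Of the oligomycin sets, A and B in that order, *Trib3* averaged 541 and 146 CPM (adjusted *P* = 1.1e-15), *Atf4* 704 and 478 CPM (7.2e-07) and *Ddit3* 226 and 123 CPM (1.2e-07), while *Irf4*, a factor induced by IL-4, averaged 25.4 and 73.9 CPM (6.4e-12). No library was assigned to a treatment from these values. Other annotated genes share 82.4% of the exon bases of *Ddit3*, so its counts may depend on how shared reads were assigned. The 7 macrophage markers were all expressed, and their summed level ranged over the libraries from 30906 to 36772 CPM (read counts scaled to the size of the library) in naive, 11716 to 14122 in IL-4/IL-13–treated, 16522 to 18129 in tunicamycin-, 14164 to 15859 in Sal003-, 9081 to 9899 in set A– and 13784 to 15650 in set B–treated macrophages. *Lyz2* made up most of this sum in naive cells (23565 CPM on average), and single markers went in opposite directions with tunicamycin, where *Csf1r* (log2 fold change -2.18 ± 0.07) and *Cd68* (-1.35 ± 0.06) fell and *Adgre1* (2.77 ± 0.07) and *Fcgr1* (2.64 ± 0.20) rose (largest adjusted *P* 1.2e-11). Markers of other cells were far lower but moved with the groups. The 8 neutrophil markers summed to 41.3 to 77.9 CPM in naive cells, to 25.5 to 45.5 CPM with the cytokines alone, and to 0.951 to 1.18, 5.5 to 8.94, 3.1 to 5.34 and 19.3 to 25.3 CPM with tunicamycin, Sal003, set A and set B, with *Camp* and *Elane* at 0 in every library of tunicamycin and of set A. The 8 stromal markers, led by collagens, ranged from 21.6 to 148 CPM in naive, 18.4 to 93.7 in IL-4/IL-13–treated, 4.12 to 26.7 in tunicamycin-, 8.85 to 52.4 in Sal003-, 6.54 to 58.1 with set A and 8.94 to 56 with set B, and were lowest in mouse 5 in every group. The 6 dendritic cell markers summed to 7.98 to 12.5 CPM in naive cells, to 10.5 to 11.5 CPM with the cytokines alone, and to 1.64 to 2.49, 3.11 to 4.22, 2.02 to 3.35 and 2.71 to 4.95 CPM with tunicamycin, Sal003, set A and set B, and the 5 that were tested were lower in each of these 4 groups than with the cytokines alone. Lymphocyte markers lay between 0.157 and 3.28 CPM and erythroid and mast cell markers between 0.047 and 0.957 CPM in every library. Osteoclast markers summed to 37.1 to 47.8 CPM in naive cells and 170 to 214 CPM with the cytokines alone. With tunicamycin, Sal003, set A and set B they summed to 46.1 to 57.1, 84.1 to 110, 59.6 to 77.9 and 83.5 to 117 CPM. The endothelial list summed to 35.8 to 54.2 CPM in naive cells and 185 to 241 CPM with the cytokines alone. In the inhibitor groups, in the same order, it summed to 51.8 to 68.2, 226 to 303, 365 to 427 and 219 to 316 CPM. Its 2 tested genes, *Kdr* and *Vwf*, were both higher with set A than with the cytokines alone. They went in opposite directions after IL-4/IL-13 and again with tunicamycin, with 1 higher and 1 lower each time. *Kdr* went against the sum there, averaging 9.81 CPM in naive cells, 1.02 with the cytokines alone and 3.75 with tunicamycin. With Sal003 and with set B, 1 of the 2 was higher and the other was not called. *Calcr* and *Emcn* were at 0 throughout. The part of these markers in the results was not tested. In bulk RNA, fewer cells that express a gene and less RNA of it per cell cannot be told apart.

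Compared per length, as CPM per kilobase (kb) of the canonical transcript, the members spanned a wide range within naive macrophages. *Stab1* stood at 187 ± 17.1 CPM per kb (SD, n = 4), ahead of *Gas6* at 133 ± 10.2 and *Itgb5* at 130 ± 12. *Marco* and *Cd163* were the lowest, at 8.24 ± 6.82 and 0.778 ± 0.12 CPM per kb. These 5 kept their places when the merged exon length of the gene was used, whereas *Msr1* went from 93.6 to 21.0 CPM per kb and ranks in the middle depend on that choice. With IL-4/IL-13, *Msr1* (103 ± 8.24 CPM per kb of canonical transcript) and *Itgb5* (90.2 ± 8.6) had the highest levels, and *Marco*, at 0.176 ± 0.0426, had the lowest.

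**Figure D1:**
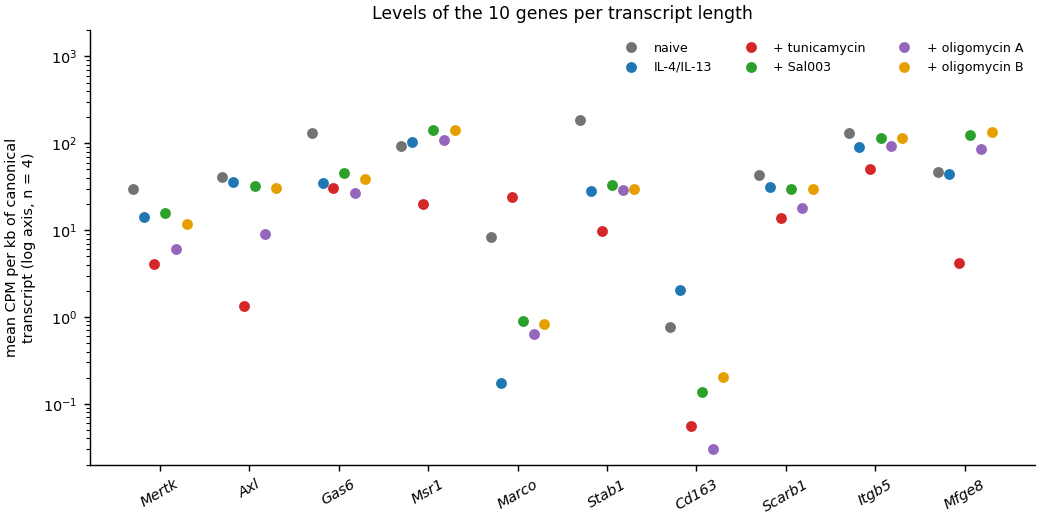
Mean level of each gene in the 6 groups (n = 4 libraries each) as CPM per kb of canonical transcript on a log axis, with 1 point per group. *Stab1*, *Gas6* and *Itgb5* had the highest naive levels, *Marco* is the gene whose tunicamycin point lies above all others, and the IL-4/IL-13 point of *Cd163* lies above its other 5.

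Most of the members were less abundant after IL-4/IL-13. At a Benjamini-Hochberg adjusted *P* under 0.05 in the quasi-likelihood test of edgeR, 6 of the 10 genes were lower (*Mertk*, *Gas6*, *Marco*, *Stab1*, *Scarb1* and *Itgb5*), where 30.4% of all tested genes were lower, and 2 were higher (*Msr1* and *Cd163*), where 30.1% were higher. *Gas6*, *Marco*, *Stab1* and *Cd163* changed by at least 2.5-fold, against 11.5% of all genes. The median log2 fold change was -0.49 over the members and -0.0226 over all genes.

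The 4 IL-4/IL-13 libraries were the controls of all 4 inhibitor groups, so these comparisons share them. With tunicamycin, 9 of 10 members were lower (37.6% of all genes were) and 1, *Marco*, was higher (38.7%), and 7 passed the 2.5-fold threshold (22.6%). With Sal003, 5 were higher (25.9%) and 1, *Cd163*, was lower (24.6%), and *Cd163* and *Mfge8* changed by at least 2.5-fold (7.71%). With oligomycin set A, 5 were lower, namely *Mertk*, *Axl*, *Gas6*, *Cd163* and *Scarb1* (32.2%), and 1, *Mfge8*, was higher (34.0%), with *Axl* and *Cd163* past 2.5-fold (12.7%). In set B, 4 were higher (27.9%) and 2, *Mertk* and *Cd163*, were lower (26.4%), with *Cd163* and *Mfge8* past 2.5-fold (7.96%). Set A against set B gave 8 lower members (21.3%) and 0 higher ones (19.9%), with *Axl* and *Cd163* past 2.5-fold (2.62%). In that last comparison every member had a negative fitted log2 fold change, so none could be called higher at any threshold. DESeq2 also called 0 higher. The median log2 fold change of the members was -1.67 with tunicamycin, 0.31 with Sal003, -0.17 with set A, 0.13 with set B and -0.60 for set A against set B, while the medians over all genes lay between -0.00199 and 0.00658.

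**Figure D2:**
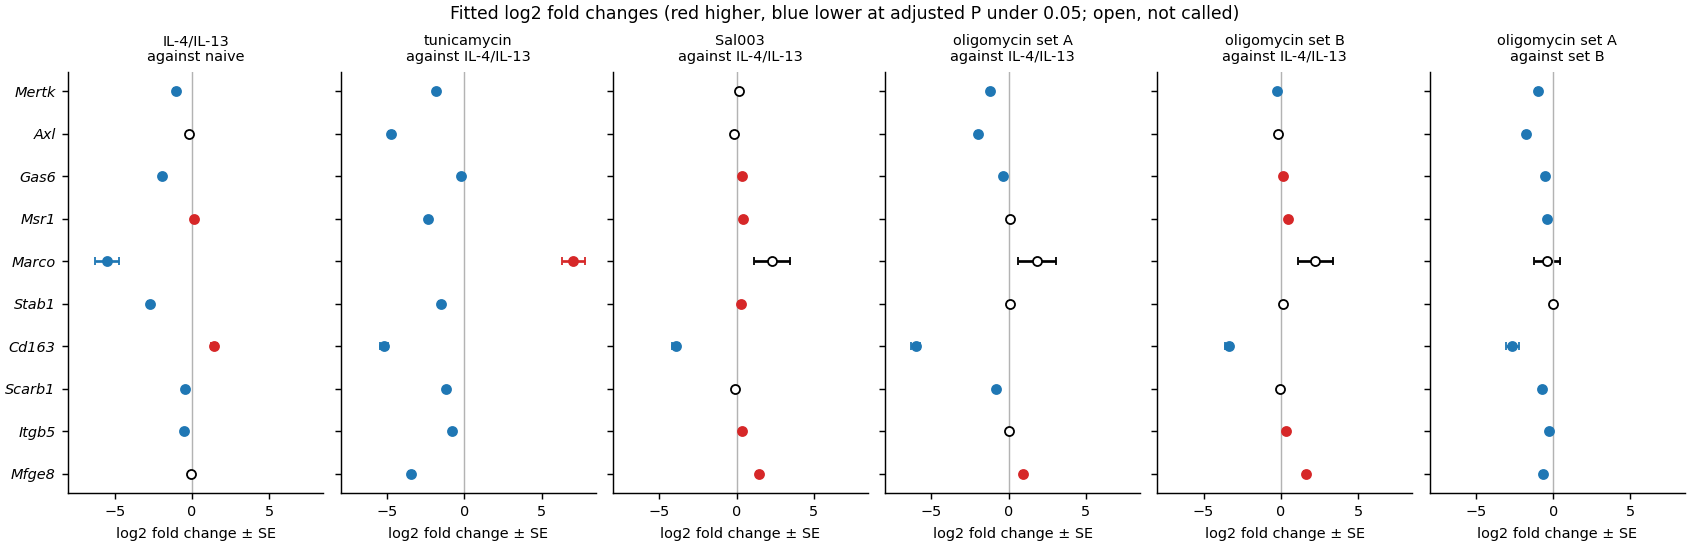
Fitted log2 fold change of each gene in each comparison, with the approximate standard error as bars. Red and blue points were higher and lower at an adjusted *P* under 0.05, and open points were not called: *Marco* is the single red point with tunicamycin (log2 fold change 7.06), and no red point appears for set A against set B.

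*Mertk* and *Axl* encode receptor tyrosine kinases of the TAM family, and *Gas6* encodes the secreted ligand that bridges them to phosphatidylserine. *Mertk* (chromosome 2, 128540729 to 128645080, GRCm39) was at 138, 104, 155 and 153 CPM in naive cells of mice 1, 2, 4 and 5 and at 65.2, 63.6, 67.9 and 67.0 CPM with IL-4/IL-13. Every naive library was above every cytokine-treated one, and the level fell by 1.06 ± 0.09 on the log2 scale (approximate SE, adjusted *P* = 7.7e-11). With tunicamycin it was at 19.8, 17.1, 19.5 and 19.4 CPM, without overlap with the controls, a log2 fold change of -1.80 ± 0.10 (adjusted *P* = 6.7e-15). Sal003 left it at 67.9 to 76.0 CPM, overlapping the controls (0.14 ± 0.09, adjusted *P* = 0.2, and 0.043 when only these 2 groups were fitted). The oligomycin sets parted here. Set A was at 28.6, 30.7, 28 and 24.5 CPM and set B at 53.1, 58.8, 57.4 and 53.0 CPM. Set A lay below set B in each of the 4 mice, by 1.86- to 2.16-fold (log2 fold change -0.99 ± 0.09, adjusted *P* = 3.5e-09). Both sets were below the cytokine controls, set A at -1.24 ± 0.09 (adjusted *P* = 1.2e-11) and set B at -0.25 ± 0.09 (adjusted *P* = 0.019). The call for set B was lost without mouse 1 (adjusted *P* = 0.088), mouse 4 (0.066) or mouse 5 (0.066).

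*Axl* (chromosome 7, 25456535 to 25488329) had a smaller fitted change after the cytokines than *Mertk*, in the same direction, and the difference between them was not tested. Naive macrophages held 194, 167, 202 and 204 CPM and IL-4/IL-13–treated ones 141, 160, 176 and 183 CPM. The ranges overlapped, although all 4 mice were lower with IL-4/IL-13, by 1.05- to 1.37-fold (log2 fold change -0.22 ± 0.13, adjusted *P* = 0.15, and 0.045 with the mouse as a block). Tunicamycin brought the transcript to 6.93, 5.71, 5.61 and 6.67 CPM, 20.4- to 31.4-fold below the controls within each mouse (-4.72 ± 0.17, adjusted *P* = 2.5e-18). Of the members, only *Cd163* fell further with tunicamycin by its fitted value. Set A held 39.2, 43.4, 37.7 and 48.1 CPM (-1.97 ± 0.14, adjusted *P* = 4.2e-12), whereas set B held 121, 161, 108 and 175 CPM and Sal003 131, 150, 126 and 190 CPM. These last 2 groups overlapped the controls. Their log2 fold changes were -0.22 ± 0.13 (adjusted *P* = 0.16) and -0.14 ± 0.13 (adjusted *P* = 0.38), and for set B the adjusted *P* was 0.038 with the mouse as a block and 0.04 without mouse 5. Set A was lower than set B in 4 of 4 mice, by 2.87- to 3.71-fold (-1.75 ± 0.14, adjusted *P* = 2.1e-10).

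*Gas6* (chromosome 8, 13515371 to 13544824) was at 379, 418, 395 and 348 CPM in naive macrophages and at 106, 99.7, 107 and 91.3 CPM with IL-4/IL-13. The ligand thus fell further than either receptor, by 3.58- to 4.19-fold within mice (-1.93 ± 0.06, adjusted *P* = 7.8e-19). The inhibitors moved it little. Tunicamycin gave 84.5 to 95.9 CPM, overlapping the controls (-0.19 ± 0.06, adjusted *P* = 0.0057, and 0.07 without mouse 4), and set A gave 73.7 to 81.7 CPM (-0.38 ± 0.06, adjusted *P* = 5.7e-06). Sal003 raised it to 123 to 138 CPM (0.36 ± 0.06, adjusted *P* = 1.9e-05). Set B, at 106 to 120 CPM, was barely called (0.16 ± 0.06, adjusted *P* = 0.032), and the call was lost under 8 alternatives with adjusted *P* values between 0.051 and 0.2, among them the omission of mouse 1 (0.15) or mouse 5 (0.2). On the opposite strand, *Tmem255b* overlaps 2.8% of the exon bases of *Gas6*. Of the rest of this receptor system, *Pros1*, which encodes the other TAM ligand, protein S, moved the opposite way from *Gas6* with the cytokines. It rose from 78.2 ± 5.07 to 180 ± 12.3 CPM (1.2 ± 0.09, adjusted *P* = 4.5e-11). It then fell with all 4 inhibitors, with log2 fold changes of -2.49 ± 0.10 for tunicamycin, -1.58 ± 0.10 for Sal003, -3.07 ± 0.10 for set A and -1.72 ± 0.10 for set B (largest adjusted *P* 9.1e-13). *Tyro3*, the remaining TAM receptor, did not pass the filter and averaged between 0.0749 and 0.26 CPM.

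**Figure D3:**
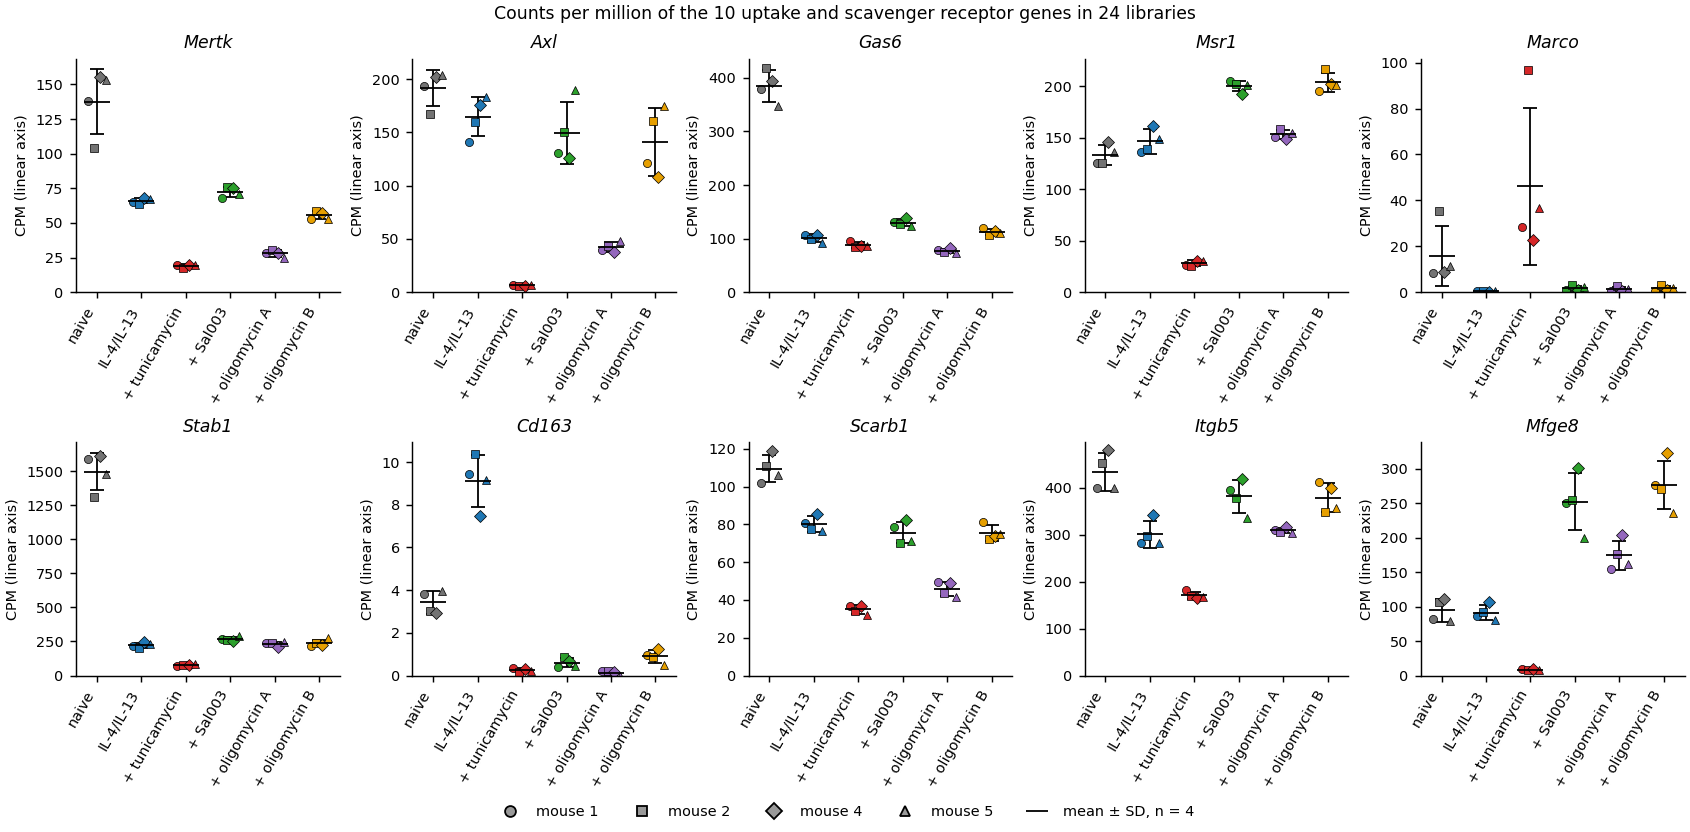
CPM of each gene in each of the 24 libraries on linear axes from 0, with a marker shape per mouse and the mean ± SD of each group of 4 in black. Tunicamycin was the lowest group for 7 of the genes, *Marco* was highest there, and *Mfge8* was higher in the Sal003 and oligomycin groups than with IL-4/IL-13 alone. The share of all tested genes that were lowest with tunicamycin was not counted.

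*Mfge8* encodes a secreted bridge between phosphatidylserine and the integrins that contain the αv subunit, and *Itgb5* encodes the β5 subunit of αvβ5. *Mfge8* (chromosome 7, 78783515 to 78798825) did not separate naive from cytokine-treated cells, with 81.6, 106, 111 and 79.0 CPM against 85.9, 92.1, 106 and 80 CPM (-0.05 ± 0.12, adjusted *P* = 0.76). With tunicamycin it was at 9.08, 7.61, 8.96 and 8.35 CPM, a fall of 9.45- to 12.1-fold within mice (-3.42 ± 0.15, adjusted *P* = 1.6e-16). The other inhibitor groups went the opposite way. Sal003 held 250, 255, 301 and 200 CPM, set A 155, 176, 203 and 162 CPM and set B 276, 270, 322 and 236 CPM. Not 1 of these 12 libraries overlapped the IL-4/IL-13 range. The log2 fold changes were 1.47 ± 0.12 (adjusted *P* = 3.3e-10), 0.93 ± 0.12 (3e-07) and 1.60 ± 0.12 (6e-11), and set A was lower than set B by 1.45- to 1.79-fold within mice (-0.67 ± 0.12, adjusted *P* = 7.3e-05). Of the 50-base stretches of its transcripts, 6.47% also occur in another annotated gene.

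*Itgb5* (chromosome 16, 33649988 to 33771137) varied least among the members, with 2.54-fold between its highest and lowest group mean. It fell with IL-4/IL-13 from 399 to 480 CPM to 281 to 342 CPM (-0.53 ± 0.07, adjusted *P* = 8e-07) and fell again with tunicamycin, to 165 to 181 CPM (-0.82 ± 0.07, adjusted *P* = 2.7e-10). Sal003 (335 to 418 CPM) and set B (348 to 411 CPM) were higher than the controls, at 0.34 ± 0.07 (adjusted *P* = 0.00032) and 0.33 ± 0.07 (0.0004). The Sal003 range overlapped that of the controls, and the set B range did not. Set A, at 304 to 316 CPM, also overlapped the controls and was not called (0.04 ± 0.07, adjusted *P* = 0.65). Because 19.9% of its 50-base stretches occur in other genes, its counts may depend on how shared reads were assigned. *Itgb3*, which encodes the β3 partner of αv, rose with the cytokines from 4.6 ± 0.144 to 106 ± 6.15 CPM (4.52 ± 0.14, adjusted *P* = 5.3e-19), the opposite direction to *Itgb5*.

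*Msr1* and *Marco* encode class A scavenger receptors, trimeric membrane proteins with a collagen-like stalk. *Msr1* (chromosome 8, 40034726 to 40095714) was at 126, 126, 146 and 136 CPM in naive macrophages and at 136, 139, 162 and 149 CPM with IL-4/IL-13. All 4 mice were higher with the cytokines, by 1.09- to 1.11-fold, but the ranges overlapped and the call was marginal (0.14 ± 0.06, adjusted *P* = 0.048). It was lost without any 1 of the mice (adjusted *P* between 0.065 and 0.1), with upper-quartile scaling (0.067), with at least 10 counts required in every library (0.056) and with only these 2 groups fitted (0.14). Tunicamycin brought it to 26.8, 25.5, 30.7 and 30 CPM, which is 4.96- to 5.44-fold lower within mice (-2.38 ± 0.06, adjusted *P* = 9.2e-21). Sal003 (193 to 205 CPM) and set B (196 to 217 CPM) lay above every control library, with log2 fold changes of 0.45 ± 0.06 (adjusted *P* = 5.4e-07) and 0.48 ± 0.06 (1.8e-07). Set A, at 149 to 159 CPM, overlapped the controls (0.06 ± 0.06, adjusted *P* = 0.35).

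*Marco* (chromosome 1, 120402267 to 120432753) was the single member that was higher with tunicamycin. Naive macrophages of mice 1, 2, 4 and 5 held 8.19, 35.4, 8.57 and 11.2 CPM, and IL-4/IL-13–treated ones held 0.334, 0.454, 0.263 and 0.303 CPM, from 5 to 9 reads a library. The 25 reads of the 4 treated libraries together gave 0.341 CPM with a 95% exact Poisson interval of 0.221 to 0.503 CPM, which covers counting error only. *Marco* was thus 24.5- to 78.2-fold lower with the cytokines in each mouse (-5.50 ± 0.80, adjusted *P* = 1.8e-06, and -4.93 without mouse 2). With tunicamycin it stood at 28.2, 96.7, 22.8 and 36.6 CPM, above every control library by a wide margin (7.06 ± 0.74, adjusted *P* = 4e-09, and 6.58 without mouse 2). Within mice the ratio was 84.4 to 213, and the tunicamycin and naive ranges overlapped each other. Sal003 held 0.934, 3.1, 0.792 and 2.06 CPM, set A 0.52, 2.82, 0.366 and 1.15 CPM and set B 0.65, 2.97, 1.13 and 1.7 CPM. In each mouse all 3 groups were above the IL-4/IL-13 library, and only set A overlapped the range of the controls.

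These smaller rises of *Marco* were not called by the model without a block. The log2 fold changes were 2.31 ± 1.15 for Sal003 (adjusted *P* = 0.1), 1.84 ± 1.21 for set A (0.19) and 2.23 ± 1.15 for set B (0.11). With the mouse as a block they were 2.36, 1.83 and 2.28 with adjusted *P* values of 1.8e-06, 6.9e-05 and 2.6e-06. Leaving out mouse 2 gave 2.07 (adjusted *P* = 0.0063), 1.17 (0.13) and 1.99 (0.0072), and DESeq2 called all 3 (0.0034, 0.02 and 0.0048). Mouse 2 had the highest level in each of the 6 groups, and the *Adgre1* level, which follows *Marco* over the groups, is given below.

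**Figure D4:**
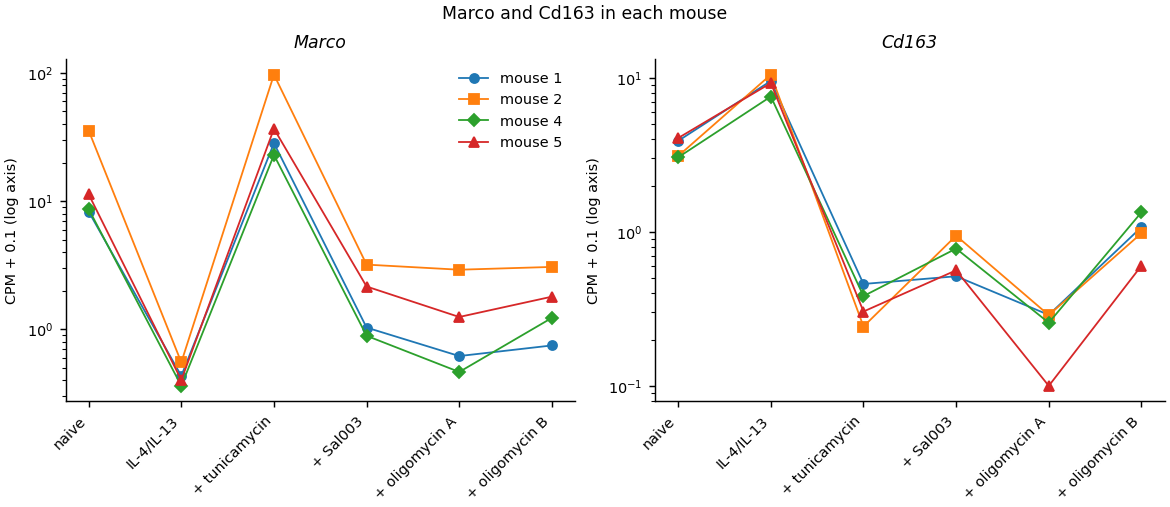
*Marco* and *Cd163* in each of the 4 mice over the 6 groups, as CPM + 0.1 on a log axis, with lines that join the libraries of a mouse. Mouse 2 was highest for *Marco* in every group, and *Marco* and *Cd163* moved in opposite directions with IL-4/IL-13 and with tunicamycin.

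*Stab1*, *Cd163* and *Scarb1* encode scavenger receptors of other classes. *Stab1* (chromosome 14, 30860970 to 30890598), whose product stabilin-1 takes up modified lipoproteins and binds phosphatidylserine, was at 1586, 1308, 1607 and 1477 CPM in naive macrophages and at 213, 204, 245 and 229 CPM with IL-4/IL-13. The fall was 6.41- to 7.44-fold within mice (-2.75 ± 0.09, adjusted *P* = 6e-19). Tunicamycin took it down to 69.3, 74.1, 78.7 and 87.2 CPM (-1.53 ± 0.08, adjusted *P* = 1.6e-14). Set A (207 to 248 CPM) and set B (215 to 273 CPM) overlapped the controls (0.06 ± 0.08, adjusted *P* = 0.54, and 0.10 ± 0.08, adjusted *P* = 0.32), while Sal003, at 250 to 287 CPM, was higher (0.27 ± 0.08, adjusted *P* = 0.008, and 0.067 without mouse 1). The exons of *Stab1* share 1.1% of their bases with *Nt5dc2* on the opposite strand.

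*Cd163* (chromosome 6, 124281606 to 124307560) encodes the hemoglobin-haptoglobin scavenger receptor. It was the single member that rose by at least 2.5-fold with IL-4/IL-13, from 3.8, 3.01, 2.95 and 3.97 CPM to 9.46, 10.4, 7.47 and 9.16 CPM (1.41 ± 0.19, adjusted *P* = 5.9e-07). All 4 inhibitor groups lay below not only the cytokine-treated but also the naive libraries. With Sal003 the values were 0.415, 0.845, 0.679 and 0.463 CPM, with set B 0.974, 0.881, 1.24 and 0.503 CPM. The log2 fold changes against IL-4/IL-13 were -3.93 ± 0.24 (adjusted *P* = 1.4e-12) and -3.38 ± 0.23 (5e-12). Tunicamycin left 3 to 7 reads a library, in all 19 reads or 0.244 CPM (exact Poisson 95% interval 0.147 to 0.381), and set A 0 to 4 reads, in all 11 reads or 0.135 CPM (0.0673 to 0.241). Fitted folds at such counts depend on the prior count, and they were -5.19 ± 0.28 (adjusted *P* = 1.1e-14) and -6.02 ± 0.31 (8.2e-15). Set A was below set B in each mouse (-2.64 ± 0.42, adjusted *P* = 1.5e-05), on 0 to 4 against 13 to 22 reads a library.

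*Scarb1* (chromosome 5, 125353547 to 125418176) encodes SR-BI, the receptor for high-density lipoprotein. Its level fell from 102 to 119 CPM in naive to 76.5 to 85.7 CPM with IL-4/IL-13 (-0.45 ± 0.06, adjusted *P* = 1.4e-06). Tunicamycin, at 32.1 to 36.8 CPM, and set A, at 41.6 to 49.4 CPM, lowered it further (-1.2 ± 0.07, adjusted *P* = 2.3e-14, and -0.81 ± 0.07, adjusted *P* = 7.8e-11). Sal003 and set B, at 70.3 to 82.2 and 72.1 to 81.5 CPM, overlapped the controls (-0.08 ± 0.06, adjusted *P* = 0.29, and -0.09 ± 0.06, adjusted *P* = 0.27). Set A was 1.52- to 1.8-fold below set B within mice (-0.72 ± 0.07, adjusted *P* = 2.9e-09).

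The order of the 6 groups thus differed from gene to gene. It is given as a description, since the share of all tested genes with the same order was not counted. Naive was the highest group for *Mertk*, *Gas6*, *Stab1* and *Scarb1*, with no overlap with the group below it. It was also the highest on average for *Axl* and *Itgb5*, but there its range overlapped that of the next group. *Cd163* was highest with IL-4/IL-13 and *Marco* with tunicamycin, the latter overlapping naive. *Msr1* and *Mfge8* were highest in set B, which overlapped Sal003. Tunicamycin was the lowest group for *Mertk*, *Axl*, *Msr1*, *Stab1*, *Scarb1*, *Itgb5* and *Mfge8*, without overlap with the next group, while *Gas6* was lowest in set A, as was *Cd163* on average, with a range that overlapped tunicamycin. From the highest to the lowest group mean the ratio was 136 for *Marco*, 68.4 for *Cd163*, 32.5 for *Mfge8*, 30.8 for *Axl*, 19.3 for *Stab1*, 7.27 for *Mertk*, 7.23 for *Msr1*, 4.96 for *Gas6* and 3.13 for *Scarb1*.

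The counts for the wider uptake system stand beside the shares of all tested genes called in the same comparison and direction. These were 30.1% higher and 30.4% lower after IL-4/IL-13, 38.7% and 37.6% with tunicamycin, 25.9% and 24.6% with Sal003, 34.0% and 32.2% with set A, 27.9% and 26.4% with set B, and 19.9% and 21.3% for set A against set B. Several of the counts were near these shares, and nothing particular to a list is read from them. Of 15 other receptors for dying cells and bridging molecules, 10 were tested. After IL-4/IL-13, 4 were higher and 4 lower, the largest changes being *Itgb3* and *Thbs1*, which encodes thrombospondin-1 (-3.17 ± 0.21, adjusted *P* = 1.6e-12). With tunicamycin 8 were lower and 2 higher (*Cd93* and *Cd300lf*), led by *Itgb3* (-4.00 ± 0.13, adjusted *P* = 4.7e-19) and *Stab2*, the relative of *Stab1* (-3.91 ± 0.16, adjusted *P* = 3.4e-17). *Trem2*, a lipid-sensing receptor, was among the 8, at 836 ± 25.8 CPM with IL-4/IL-13 and 101 ± 16 CPM with tunicamycin (-3.05 ± 0.09, adjusted *P* = 2.1e-20). Sal003 gave 3 higher and 3 lower, set A 3 and 6, and set B 4 and 3. In all 3 the phosphatidylserine receptor *Cd300lf* rose most, by 3.36 ± 0.24, 3.80 ± 0.23 and 3.29 ± 0.24 on the log2 scale (largest adjusted *P* 1.4e-11). Set A against set B gave 1 higher and 8 lower, led by *Pros1* (-1.34 ± 0.10, adjusted *P* = 1.5e-10) and *Lrp1* (-0.61 ± 0.10, adjusted *P* = 2.5e-05).

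Among 13 other scavenger receptors, 11 were tested, and 3 were higher and 5 lower after IL-4/IL-13. *Olr1*, which encodes a receptor for oxidised low-density lipoprotein, rose most, from 0.327 ± 0.0485 to 9.92 ± 0.415 CPM (4.90 ± 0.18, adjusted *P* = 1.3e-17), followed by *Ssc5d* (2.28 ± 0.23, adjusted *P* = 3.8e-09). *Cd36*, a class B scavenger receptor like *Scarb1*, also rose, from 432 ± 48.5 to 1472 ± 148 CPM (1.77 ± 0.08, adjusted *P* = 2.8e-15), the opposite direction to *Scarb1*. With tunicamycin 8 were lower and 2 higher, *Olr1* falling by 7.13 ± 0.23 on the log2 scale (adjusted *P* = 2.6e-19) and *Cd5l*, which encodes a soluble scavenger protein of macrophages, rising by 1.59 ± 0.12 (adjusted *P* = 1e-11). *Olr1* had 0 to 2 reads a library with tunicamycin and 6 to 7 in naive cells, and fitted folds at such counts depend on the prior count. Sal003 gave 6 higher and 3 lower, set A 2 and 4, set B 5 and 3, and set A against set B 1 and 8.

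Of 12 genes of cytoplasmic engulfment proteins, 11 were tested, with 4 higher and 5 lower after IL-4/IL-13, 3 and 6 with tunicamycin, 2 and 6 with Sal003, 2 and 5 with set A, 2 and 6 with set B, and 2 and 4 for set A against set B. *Elmo2*, which encodes a partner of the Dock proteins in activating Rac, had the largest change in all 6 comparisons. It rose with IL-4/IL-13 from 118 to 313 CPM on average (1.40 ± 0.05, adjusted *P* = 3.3e-17) and fell to 52.4, 141, 75.8 and 128 CPM with tunicamycin, Sal003, set A and set B. Among the 6 genes of receptor shedding and of the CD47-SIRPα restraint, 3 rose and 3 fell after IL-4/IL-13, 2 and 3 with tunicamycin, 3 and 1 with Sal003, 2 and 2 with set A, 3 and 1 with set B, and 1 and 4 for set A against set B. *Cd47*, which encodes the signal that restrains phagocytes, was higher with each inhibitor, by 0.92 ± 0.06, 0.54 ± 0.06, 0.68 ± 0.06 and 0.50 ± 0.06 on the log2 scale (largest adjusted *P* 7.5e-08). *Mmp12*, which encodes macrophage elastase, had the largest change of the list in all 6 comparisons, with 73.2 CPM on average in naive, 1298 with IL-4/IL-13 (4.15 ± 0.17, adjusted *P* = 1.8e-16) and 7.08 with tunicamycin (-7.53 ± 0.21, adjusted *P* = 2e-20).

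The 9 transcription factors of a further list were all tested, and whether they regulate the members was not. After IL-4/IL-13, 2 were higher and 6 lower, with the largest changes for *Maf*, from 868 ± 86.4 to 95 ± 4.33 CPM (-3.19 ± 0.08, adjusted *P* = 4e-21), and *Pparg*, from 55.6 ± 3.82 to 144 ± 6.19 CPM (1.38 ± 0.05, adjusted *P* = 1.9e-17). With tunicamycin 7 were lower and *Maf* alone was higher (1.94 ± 0.07, adjusted *P* = 6.4e-18). *Pparg* then fell to between 20.7 and 25.3 CPM (-2.68 ± 0.06, adjusted *P* = 4e-23), and *Nr1h3*, which encodes the liver X receptor LXRα, from 34.6 ± 1.49 to 8.59 ± 0.922 CPM (-2.01 ± 0.14, adjusted *P* = 1e-12). Sal003 gave 4 higher and 2 lower, among the former *Nr1h3* (0.91 ± 0.11, adjusted *P* = 3.4e-07). Set A gave 1 and 3, set B 3 and 1, and set A against set B 1 and 6.

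Over the 24 libraries, the genes whose log2 CPM was most like that of a member are given here as a description, since the libraries share 4 mice and 6 treatments. *Axl* was most like *Rab7b* (Pearson *r* = 0.99), *Sdc3* and *Nuak2* (both 0.989). *Msr1* and *Mfge8* had *Emp1* (0.993 and 0.989) and *Ctsb* (0.99 and 0.993) in common, besides *Trem6l* for *Msr1* (0.992) and *Mpst* for *Mfge8* (0.988), and their own *r* was 0.978. *Mertk* was most like *C5ar2* (0.983), *Tbc1d4* (0.982) and *Dipk1a* (0.981), and *Scarb1* like *Dipk1a* (0.983), *Fuca1* (0.981) and *Man1c1* (0.98). *Gas6* went with *Tnfrsf14* (0.98), *Dusp7* (0.979) and *Zdhhc14* (0.976), *Stab1* with *Elk3* (0.988), *Rcbtb2* (0.983) and *Rara* (0.981), and *Itgb5* with *B3gnt3* (0.966), *Cds1* and *Rxra* (both 0.963). *Cd163* was matched less closely, by *Etv6* and *Sesn3* (both 0.962) and *Pdcd4* (0.961). *Marco* had the lowest leading values, with *Gm53692* and *Adgre1* (both 0.943) and *Actr3* (0.94). *Adgre1*, the F4/80 gene, averaged 3484 CPM in naive, 977 with IL-4/IL-13 and 6674 with tunicamycin. Between members *r* ranged from -0.733, for *Msr1* and *Marco*, to 0.978. *Marco* had a negative *r* with 8 of the 9 others, the exception being *Gas6* (0.322). It was near 0 for *Stab1* (-0.00765) and weak for *Mertk* (-0.201) and *Cd163* (-0.262).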

How the data were processed

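The mRNA libraries of 24 BMDM cultures were sequenced as single reads. According to the submitters' processing notes, the authors trimmed reads with Cutadapt 1.8, aligned them with STAR 2.7 to GRCm39 and counted them with HTSeq 0.9.1, and the deposited values are raw counts per gene, without normalization. The strand setting is not given in the sources used here. The 5 totals rows of no gene (12.74% to 15.23% of reads) entered neither the library sizes nor the tests, and 24 columns of deposited RSEM 1.2.31 TPM values were not used because their header could not be matched to libraries.

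Counts were analysed with edgeR 4.0.16 in R 4.3.3: filterByExpr by group, TMM (factors 0.936 to 1.05) and the quasi-likelihood test in 1 model over all 24 libraries, with Benjamini-Hochberg adjustment over 13679 genes. Levels are TMM-scaled CPM. The value after ± of a log2 fold change is an approximate SE, the absolute log2 fold change divided by the square root of F in that test. It is not a spread measured between libraries. The members and lists were chosen with earlier results of these data known. A gene of 2 of the lists is not reported here and was left out of their counts and sums. Further genes were named by size: of each list the 2 called genes with the largest change and a mean of at least 50 counts, 7 set genes, and the 3 genes most correlated with each member.

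Numbers mark animals. Deviations from group means had a median correlation of 0.236 for the same mouse (56 of 60 pairs above 0.1) and -0.0543 for different mice (7 of 180). The study states no block for the mouse in its RNA sequencing tests, although it used paired tests for several other measures. The block was run as an alternative, as were DESeq2 1.42.0, RLE and upper-quartile scaling, no filter, at least 10 counts in every library, only the groups compared, and leaving out each mouse. Replicates differed by more than counting noise (chi-square per gene 2.22 to 37.2), and the median biological coefficient of variation was 7.06%. Sequences and coordinates are from GRCm39 with GENCODE, in which 56323 of 56884 gene identifiers were found.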

Additional observations from a re-analysis of the deposited data

Results flagged for a closer look

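Of 60 groups of 4 libraries, 1 for each gene and condition, 4 had a library far from the other 3, where chance flags about 1 in 20 groups. *Marco* in naive macrophages was at 35.4 CPM in mouse 2, against 8.19 to 11.2 CPM in the other mice. *Mertk* with tunicamycin was at 17.1 CPM in mouse 2, against 19.4 to 19.8 CPM. *Gas6* with tunicamycin was at 95.9 CPM in mouse 1, against 84.5 to 86.3 CPM. *Cd163* in oligomycin set A was at 0 CPM in mouse 5, against 0.157 to 0.189 CPM, a difference of 0 from 3 to 4 reads.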

How the results depend on the processing

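Of 646 values of the 10 genes under the alternatives, 608 kept their direction and side of the threshold, 16 became called, 20 lost the call and 2 changed sign. The 2 were uncalled: *Mfge8* with IL-4/IL-13 against naive ranged from -0.07 to 0.01 on leaving out each mouse (0.01 without mouse 2), and *Stab1* for set A against set B from -0.09 to 0.004 (0.004 without mouse 5). The mouse as a replicate block changed the call of *Axl* (IL-4/IL-13 and set B) and *Marco* (Sal003, set A and set B) and of no other member. Requiring at least 10 counts in every library removed *Marco* and *Cd163* and lost the call of *Msr1* with IL-4/IL-13 (adjusted *P* = 0.056), leaving 0 members higher with IL-4/IL-13, 0 higher with tunicamycin, 0 lower with Sal003 and 1 lower with set B. Members higher with IL-4/IL-13, 2 in the reported fit, numbered 1 with upper-quartile factors, with only the groups compared and on leaving out each mouse (1 to 1). Members higher with set A numbered 2 with DESeq2 and with the replicate block, where *Marco* was added. Members lower with set B numbered 1 to 2 on leaving out each mouse. With only the groups compared, *Marco* in set A and *Cd163* between the sets gave no value. Uncalled values of other genes changed sign near 0: *Pparg* in set B with upper-quartile factors (-0.02), and *Trem2* in set B at -0.04 with these factors and -0.01 with DESeq2, RLE scaling, at least 10 counts and only the groups compared. On leaving out each mouse, *Maf* in set A ranged from -0.11 to 0.02, *Pparg* in set B from -0.0009 to 0.05 and *Trem2* in set B from -0.03 to 0.03. The cause of these changes was not tested. Depth limited *Marco* with IL-4/IL-13, *Cd163* with the inhibitors and *Olr1* in naive and tunicamycin-treated cells, which rest on few reads.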
